A study of Mus musculus with 16 samples.

Results

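Uninduced NERT mesodermal cells were compared with control mesodermal cells, both cultured without cycloheximide, on 4 of the 16 arrays of the series. The members were all mesodermal progenitor arrays that the sample labels give as free of cycloheximide (CHX) and as either carrying the control construct or not induced. Both lines derive from EB5, a mouse embryonic stem cell (ESC) line. EB5 NERT cells carry NERT, the intracellular part of murine Notch1 joined to a hormone-binding domain, which enters the nucleus when 4-hydroxytamoxifen (OHT) is added, and EB5 control cells carry the pCAG expression vector without that insert. The cells of all 4 samples were grown for 4 days on collagen IV in medium with fetal calf serum, and none received CHX. The NERT group holds replicates 1 and 2 without OHT, and the control group holds 1 array without OHT and 1 with 1 µM OHT for 4 h. The cells were not sorted by any step the sources describe, the formation of Flk1+ cells was followed by flow cytometry, and the number of clones behind each line is not given in the sources used here. Line, clone, differentiation run and the presence of NERT cannot be told apart in this design. Nothing states that the 2 NERT replicates were separate cultures, and the p-values then rest on array-to-array spread alone, which may be technical. For comparison before differentiation, ESC kept for 4 h in mesodermal medium (ESCm) gave 1 uninduced NERT array and 2 control arrays.

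Mesoderm forms from pluripotent epiblast-like cells by way of a primitive streak state under Wnt, Nodal and FGF signals. During this transition the pluripotency factors fall, T-box and homeobox factors of the streak appear, and the earliest mesoderm gains receptors such as Aplnr, Kdr (Flk1) and Pdgfra. Notch receptors are cleaved after ligand binding, and the freed intracellular part joins RBP-J on DNA and turns on genes of the Hes and Hey repressor families and the feedback inhibitor Nrarp.

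The 4 arrays were alike in scale, with medians of 43.2 to 44.0, and array medians over the whole series were 42.0 to 46.9. Values are linear model-based intensities, and distances between arrays are root mean squares of the log2 difference, taken across 25637 probe sets. The 2 control arrays were 0.16 apart and the NERT replicates 0.25 apart, whereas a NERT array was 0.39 to 0.41 from a control array. Limma, fitted to all 16 arrays, placed 1659 probe sets higher in the NERT line, 6.47% of those tested, and 612 lower, 2.39%, at an adjusted p under 0.05. With quantile normalization the split was 1416 higher and 1013 lower. The study filtered on fold, on difference and on detection as present. Detection calls are not used here, and with the fold and difference filters alone (group means 2-fold or more apart and apart by more than 50) 537 of 45037 probe sets were higher (1.19%) and 215 lower (0.477%). These 2 filters gave 11 probe sets between the control arrays with and without OHT and 160 between the NERT replicates. The count of 2271 limma calls fell to 541 without the control array that lacked OHT, to 663 without the control array with OHT, to 753 without NERT replicate 1 and to 1091 without NERT replicate 2. It was 3566 and 3563 without replicate 1 and 2 of the arrays with CHX and OHT, which enter only the estimate of spread. Under all 21 distinct settings run, 330 probe sets were higher and 116 lower. Taken by genes, each read from its brightest probe set, 1024 of 12682 were higher (8.07%) and 365 lower (2.88%).

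The labelled cell type was checked by summed intensities. The early mesoderm list summed to 6327 and 6430 in control mesodermal cells and to 13612 and 11385 in uninduced NERT mesodermal cells, beside 5471 and 5307 in control ESCm. The pluripotency list summed to 53326 and 52651, to 37315 and 39027, and to 67049 and 66753 in the same order. Control mesodermal cells thus lay nearer to ESCm than NERT mesodermal cells did on both sums. Pou5f1, the core pluripotency factor Oct4, stood at 3449 and 3303 in control mesodermal cells and at 2490 and 2624 in control ESCm.

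The largest rises over control mesodermal cells were led by Aplnr, the apelin receptor of early mesoderm. It stood at 68.1 and 70.01 on the control arrays without and with OHT and at 1005 and 1098 on NERT replicates 1 and 2, a difference of 3.52 on the log2 scale (SE 0.16, limma adjusted p = 8.94e-07). Rtp4, a chaperone of receptor transport that interferon induces, stood at 41.6 and 31.8 in control and at 511 and 601 in NERT cells. Rspo3, a secreted amplifier of Wnt signalling, stood at 49.6 and 64.4 in control and at 520 and 517 in NERT cells. In each case both NERT arrays lay far above both control arrays, and the rule for naming these genes required that the groups not overlap. The 15 largest rises spanned log2 differences of 2.21 to 3.52, with limma adjusted p of 0.000232 or less.

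Several of these 15 genes are known as targets of interferon. Besides Rtp4 they were Irgm2 and Iigp1, GTPases of cell-autonomous immunity, Usp18, which removes ISG15, Trim30a, Oasl2 and the guanylate-binding protein Gbp7. Usp18 stood at 24.6 and 21.9 in control and at 234 and 312 in NERT cells, and Iigp1 at 76.5 and 85.6 and at 641 and 527. Others were developmental regulators. Lhx1, a homeobox factor of early mesoderm, stood at 6.07 and 15.6 in control and at 194 and 121 in NERT cells, and Nkx1-2, a homeobox factor of the caudal epiblast, at 70.8 and 60.3 and at 547 and 401. Lmo2, a cofactor of blood and endothelial formation, stood at 23.7 and 28.5 in control and at 220 and 222 in NERT cells. Nrarp, the feedback inhibitor of Notch, stood at 87.4 and 80.7 and at 534 and 707. The imprinted adaptor Grb10 (152 and 148, against 998 and 883) and the zinc finger factor Zfp503 (77.0 and 85.4, against 591 and 555) completed the set. For Grb10, 1 of the 2 other probe sets tested ran the other way. All 15 genes were also higher in mesodermal cells than in ESC when induced NERT arrays were compared, beside 81.6% of all 1024 higher genes. Those arrays enter the line difference only through the shared estimate of spread.

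**Figure D1:**
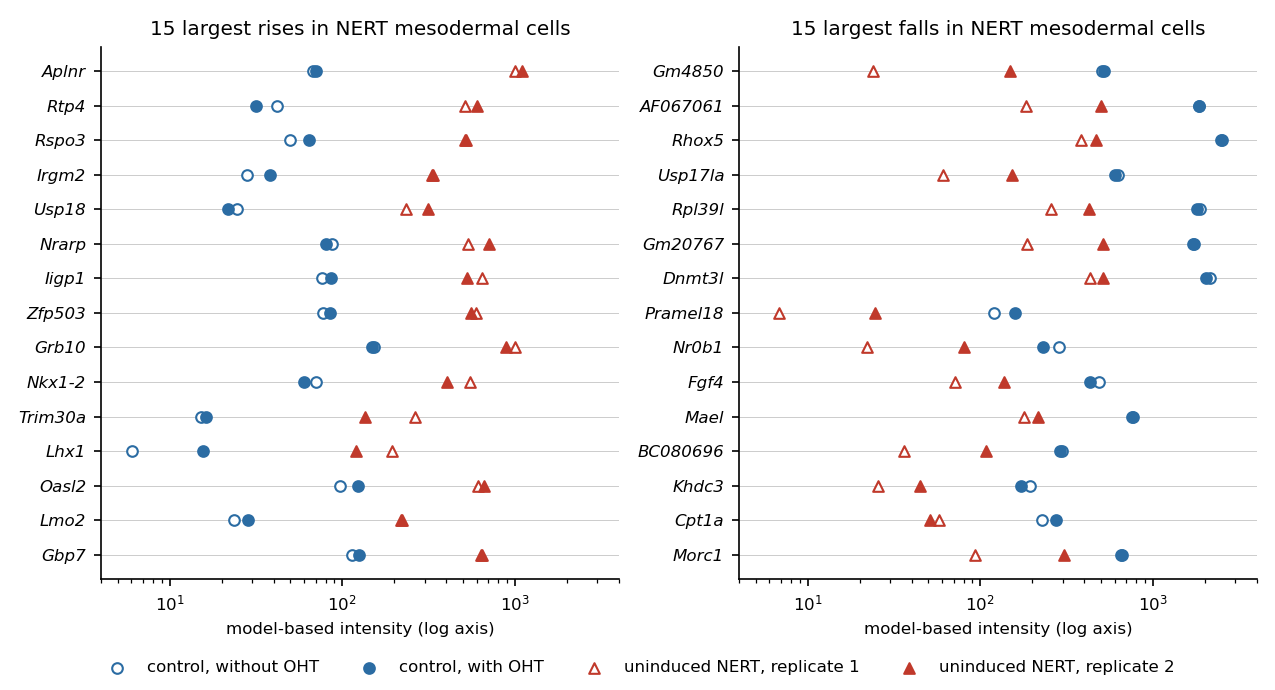
Model-based intensity (log axis) of the 15 largest rises and the 15 largest falls on the 2 control arrays (circles) and the 2 uninduced NERT arrays (triangles), 1 point an array. For Aplnr the NERT points sit at 1005 and 1098 against 68.1 and 70.01, and on the right replicate 1 lies farther from control than replicate 2 for 14 of 15 genes.

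The largest falls were genes of pluripotent and germline cells and members of multicopy families. Rhox5, an X-linked homeobox gene of the reproductive homeobox cluster, stood at 2468 and 2505 in control and at 382 and 470 in NERT cells, a log2 difference of -2.48 (SE 0.15, limma adjusted p = 2.58e-06). Dnmt3l, a cofactor of de novo DNA methylation, stood at 2129 and 2027 and at 434 and 510, and Rpl39l, a ribosomal protein paralog, at 1863 and 1795 and at 258 and 428. Nr0b1 (Dax1), a nuclear receptor of the pluripotency network, stood at 287 and 230 and at 22.0 and 80.1, and Fgf4, a growth factor of undifferentiated cells, at 488 and 434 and at 71.5 and 138. Mael and Morc1, both of which silence transposons in the germline, and Khdc3, an oocyte protein, were also among the 15, as was Cpt1a, which moves fatty acids into mitochondria. The remaining falls were Gm4850, AF067061, Gm20767, Usp17la, a deubiquitinase of a multicopy family, Pramel18, of the Prame family, and BC080696.

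The NERT replicates stood apart over several of these falls. Gm4850 stood at 510 and 518 in control, at 24.03 in replicate 1 and at 149 in replicate 2, and Morc1 at 654 and 658, 93.0 and 307. Replicate 2 was the nearer to control for 14 of the 15 falls and for 9 of the 15 rises, beside 61.9% of all 612 lower and 56.2% of all 1659 higher probe sets. The limma adjusted p was 0.0147 for Gm4850 and 0.0243 for Morc1, and both were lost without replicate 1 and without either control array. The fit of the mesodermal arrays without CHX lost Morc1 as well, and Nr0b1 was lost without replicate 1 and without the control array that lacked OHT. AF067061 and Gm20767, both on chromosome 13, had nearly the same values (1835, 1857, 185 and 500, against 1738, 1703, 187 and 512), so their probe sets may read the same transcripts, and paralogs of the interferon-induced GTPases may share signal too.

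Early mesoderm and primitive streak genes tended to be higher in NERT cells. This list, which holds Aplnr, Mixl1 and Evx1, and all other gene lists were written with earlier results of these data known. Their shares beside those of all genes are therefore descriptive and no independent support. Of 30 tested genes 16 were higher and none lower, against 8.07% higher among all genes, and the list median was 0.76 on the log2 scale against 0.05 for all genes. Mixl1, a homeobox factor of the streak, stood at 250 and 237 in control and at 1254 and 856 in NERT cells (log2 difference 1.98, SE 0.22, limma adjusted p = 0.000189). Evx1, another homeobox factor of the streak, stood at 142 and 131 and at 626 and 434 (1.76, SE 0.22, limma adjusted p = 0.000564). For both genes replicate 1 was the higher, and the groups did not overlap. The growth factor Fgf8 stood at 215 and 241 in control and at 856 and 616 in NERT cells, and the caudal factor Cdx2 at 67.8 and 96.9 and at 373 and 361. Hoxb1, the first Hox gene of the streak, stood at 18.3 and 31.9 and at 187 and 166.

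Kdr, which encodes the Flk1 receptor used to follow the differentiation, stood at 106 and 128 in control and at 229 and 277 in NERT cells (log2 difference 0.97, limma adjusted p = 0.0107). Pdgfra, a receptor of paraxial mesoderm, stood at 29.5 and 40.7 and at 90.5 and 155, but its other probe set ran the other way. Tbx6, a factor of presomitic mesoderm, stood at 36.8 and 25.9 and at 67.2 and 71.9. Mesp1, a factor of cardiac mesoderm, stood at 242 and 227 in control and at 259 and 253 in NERT cells, and Eomes, a T-box factor of the streak, at 505 and 525 and at 746 and 556. Neither Mesp1 nor Eomes passed the threshold (limma adjusted p = 0.726 and 0.273). Apela, a peptide ligand of the apelin receptor, stood at 919 and 894 and at 621 and 431 (limma adjusted p = 0.0724), whereas the other ligand, Apln, was higher in NERT cells with 156 and 159 against 850 and 469.

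Among markers of other lineages some genes were higher and some lower, beside 8.07% higher and 2.88% lower among all genes. The share higher was 5.56% to 10% in the blood and endothelium, endoderm, neuroectoderm, and cardiac and muscle lists, near that of all genes. It was 45.5% in the fibroblast and stroma list and 0% in the trophoblast list. The share lower was 0% for blood and endothelium, 16.7% for endoderm, 8.33% for neuroectoderm and 30% for cardiac and muscle. For fibroblast and stroma it was 9.09%, and for trophoblast 22.2%. Of 17 tested genes of blood and endothelium only Lmo2 passed the threshold, and 13 of the 26 listed genes on the array stayed under 50 on all 4 arrays. The summed intensity of that list was 2150 and 2256 in control and 2300.3 and 2308 in NERT cells. Of 18 endoderm genes Pdgfra was higher, and Amn, Cubn and Lama1, genes of visceral and parietal endoderm, were lower. Of 12 neuroectoderm genes the fatty acid binding protein Fabp7 was higher (27.7 and 29.0, against 229 and 202) and the neuronal tubulin Tubb3 lower (155 and 134, against 43.6 and 62.2). Of 10 cardiac and muscle genes Isl1 was higher and Myh6, Actc1 and Cnn1 were lower. Of 11 fibroblast and stroma genes 5 were higher (Pdgfrb, Col5a1, Fn1, Col3a1 and Col1a1) and Thy1 was lower, with a list sum of 3146 and 3340 in control and 6203 and 7201 in NERT cells. Trophoblast genes included 2 that were lower, Ascl2 and Esx1, among 9 tested, whereas the summed intensity of that list was 11277 and 11447 in control, 13146 and 17093 in NERT cells and 4915 and 4859 in control ESCm. These lists were written as markers of other cell types the culture could hold, and their part in the line difference was not tested. In bulk samples such as these, fewer cells of a type and less RNA per cell cannot be told apart.

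**Figure D2:**
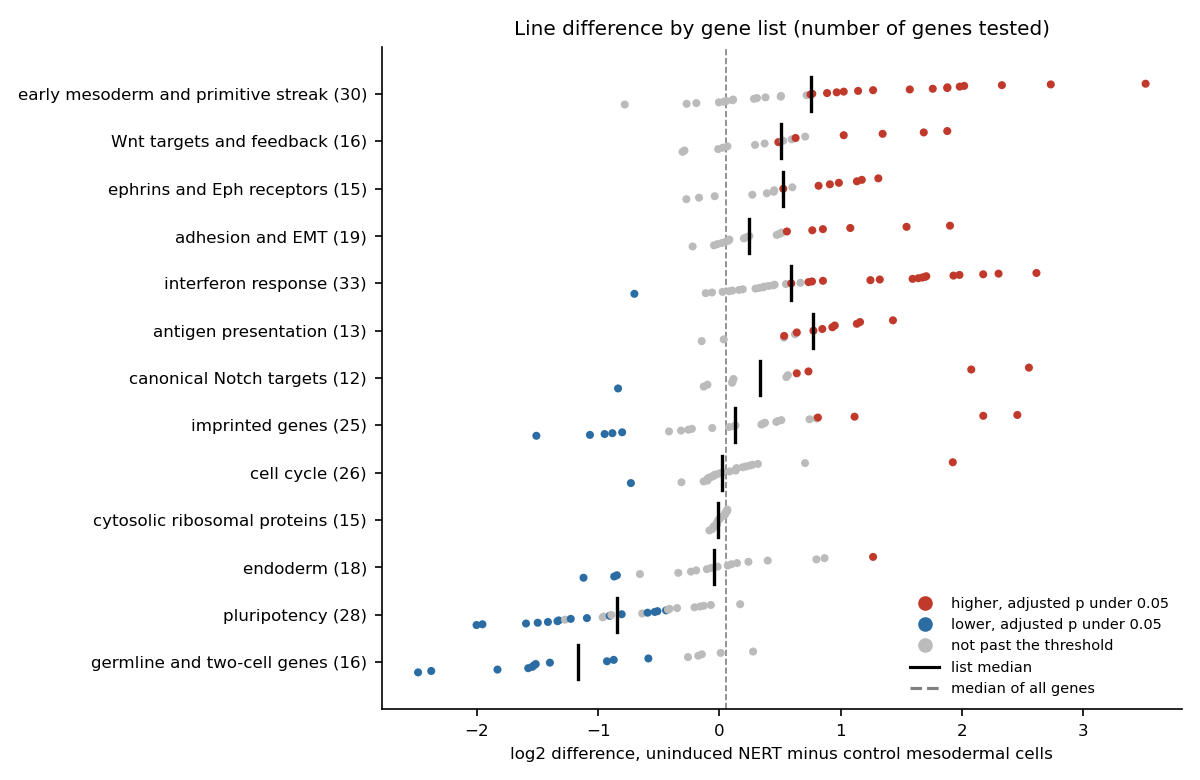
Log2 difference between uninduced NERT and control mesodermal cells for the tested genes of 13 lists, 1 point a gene, coloured by the limma call, with the list median (black bar) and the median of all genes (dashed line, 0.05). Early mesoderm, interferon and antigen presentation genes lie mostly to the right of 0, pluripotency and germline genes mostly to the left, and ribosomal protein genes at 0.

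Pluripotency genes went the other way. Of 28 tested genes 15 were lower and none higher, against 2.88% lower among all genes, and the list median was -0.85. Pou5f1 (Oct4) stood at 3449 and 3303 in control and at 2576 and 1814 in NERT cells (log2 difference -0.64, limma adjusted p = 0.28). Sox2 stood at 4182 and 4159 and at 2914 and 3233 (-0.44, limma adjusted p = 0.0189), and Nanog at 1980 and 1987 and at 1491 and 1247 (-0.53, limma adjusted p = 0.0273). By contrast Zfp42 (Rex1) stood at 2848 and 2859 in control and at 781 and 1589 in NERT cells, Klf4 at 609 and 581 and at 152 and 321, and Dppa2 at 1566 and 1659 and at 540 and 643. Among the genes not past the threshold, Tfcp2l1 (438 and 413, against 251 and 384), Klf2 and Nr5a2 also lay below control on both NERT arrays. Lin28a (2311 and 2064, against 2664 and 2278) and Tdgf1, the Nodal co-receptor Cripto (5305 and 5067, against 5350 and 4559), overlapped. Without NERT replicate 1 the list had 2 lower calls, and without either control array it had 3.

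Germline and 2-cell stage genes were lower too. Of 16 tested genes 11 were lower and none higher, with a median of -1.16, beside 2.88% lower among all genes. Besides Rhox5, Mael and Usp17la they included the other reproductive homeobox genes Rhox6 (395 and 421, against 93.8 and 152) and Rhox9, the meiotic chromosome protein Hormad1 (100.0 and 86.1, against 13.6 and 26.8), the RNA-binding protein Dazl and the transposon control gene Tex19.1. Ddx4 (364 and 376, against 444 and 465) and Sycp3 (729 and 765, against 813 and 697) did not pass the threshold. In ESCm the same 16 genes had a median of -0.40 between the lines with Rhox5 alone past the threshold, where 0.237% of all genes were lower. Of the primed epiblast list, Foxd3 fell furthest behind control (114 and 142, against 17.5 and 26.6), the methyltransferases Dnmt3a and Dnmt3b were lower (log2 differences -0.44 and -0.45), and N-cadherin (Cdh2), Sox4 and Sox11 were higher. Only 1 of the 4 other Dnmt3a probe sets had the same sign.

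The interferon response list and the antigen presentation list were both higher in NERT mesodermal cells. Of 33 tested interferon response genes 16 were higher and 1 lower, with a median of 0.59, and of 13 antigen presentation genes 9 were higher and none lower, with a median of 0.78. Among all genes 8.07% were higher and 2.88% lower, with a median of 0.05. Interferons act through STAT and IRF factors, which bind elements whose core is GAAA, any 2 bases and GAAA again, and they raise GTPases, RNA sensors and the peptide loading machinery of class I molecules. Promoters of 4 genes that stood higher in NERT cells and hold this core are printed from RefSeq (GRCm38.p6), from 250 bases before to 50 bases after the start, 5′ to 3′ on the gene's strand, with the core in capitals on whichever strand it lies. Irgm2 lies at chr11:58214727-58215026 (plus strand), Ifit1 at chr19:34640639-34640938 (plus), Gbp2 at chr3:142620413-142620712 (plus) and Oas1a at chr5:120907476-120907775 (minus), where 2 matches overlap.
Irgm2: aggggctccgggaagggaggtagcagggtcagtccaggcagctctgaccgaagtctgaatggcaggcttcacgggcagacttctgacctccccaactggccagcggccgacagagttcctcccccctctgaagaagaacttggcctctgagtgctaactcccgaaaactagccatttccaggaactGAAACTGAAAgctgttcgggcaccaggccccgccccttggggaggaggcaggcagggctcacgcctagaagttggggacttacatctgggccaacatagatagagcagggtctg
Ifit1: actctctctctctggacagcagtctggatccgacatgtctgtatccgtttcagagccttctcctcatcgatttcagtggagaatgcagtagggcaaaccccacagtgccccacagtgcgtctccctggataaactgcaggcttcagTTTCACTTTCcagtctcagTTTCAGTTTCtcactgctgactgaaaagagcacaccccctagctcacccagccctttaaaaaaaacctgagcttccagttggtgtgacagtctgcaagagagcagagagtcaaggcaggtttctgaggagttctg
Gbp2: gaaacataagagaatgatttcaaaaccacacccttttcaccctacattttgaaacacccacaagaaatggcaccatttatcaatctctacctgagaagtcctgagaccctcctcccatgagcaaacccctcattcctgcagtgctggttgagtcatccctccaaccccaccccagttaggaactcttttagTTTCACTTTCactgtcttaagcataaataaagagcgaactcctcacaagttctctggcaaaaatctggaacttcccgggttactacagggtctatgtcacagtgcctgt
Oas1a: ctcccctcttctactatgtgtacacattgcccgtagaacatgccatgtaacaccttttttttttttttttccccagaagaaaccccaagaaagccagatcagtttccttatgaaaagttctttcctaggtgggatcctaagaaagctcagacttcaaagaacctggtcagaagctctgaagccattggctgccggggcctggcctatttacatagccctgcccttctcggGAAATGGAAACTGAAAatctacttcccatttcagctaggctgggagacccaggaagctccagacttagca

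On both strands the core was found in 3.44% of 32851 promoters of this length. Of the 25 listed genes that were higher, 21 had a promoter and 9 of these held the core. Irgm2, which is on neither list, is shown as one of the 15 largest rises. Of the 21 listed genes tested and not higher, 15 had a promoter and 8 held it, among them Cxcl10, Ifit3 and Rsad2. Promoters with the core were found on both sides of the threshold.

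Ifit1, which binds foreign RNA, stood at 11.3 and 14.5 on the control arrays without and with OHT and at 89.9 and 108 on NERT replicates 1 and 2 (log2 difference 1.71, SE 0.19, limma adjusted p = 0.000212). Gbp2, a guanylate-binding protein, stood at 773 and 736 and at 2423 and 2503, and Oas1a, which makes the activator of RNase L, at 102 and 105 and at 252 and 350. Ifih1 (Mda5), a sensor of double-stranded RNA, stood at 51.2 and 48.2 and at 309 and 315. In each of these genes the groups stood clearly apart. Irf1, a transcription factor of the pathway, stood at 1595 and 1594 and at 3454 and 2440. The related factor Irf7 did not differ past the threshold (92.7 and 82.8, against 95.9 and 84.0, limma adjusted p = 0.953), nor did Rsad2 (72.3 and 70.1, against 69.2 and 65.3), an antiviral enzyme. The chemokine Cxcl10 was lower (74.4 and 75.7, against 40.0 and 33.2).

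Among antigen presentation genes, the immunoproteasome subunits Psmb8 (145 and 189, against 398 and 602), Psmb9 and Psmb10 were higher. The peptide transporter genes Tap1 and Tap2, the loading factor Tapbp (1357 and 1355, against 2794 and 2507), the peptide-trimming enzyme Erap1 and the light chain B2m (952 and 930, against 1694 and 1949) were higher too, as was H2-K1. H2-D1 (500 and 515, against 778 and 813) did not pass (limma adjusted p = 0.0954), and the class II regulator Ciita stayed at 40.7 to 53.1 on the 4 arrays. The count of 9 fell to 2 and 3 without the control array lacking OHT and that with it, and to 4 and 3 without NERT replicates 1 and 2. In ESCm, with 1 NERT array, the median line differences of the 2 lists were -0.11 and -0.12, beside -0.04 over all genes. All 16 higher interferon genes and all 9 higher antigen genes were also higher in the comparison of induced NERT mesodermal cells with ESC, as were 81.6% of all genes higher in the line difference.

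**Figure D3:**
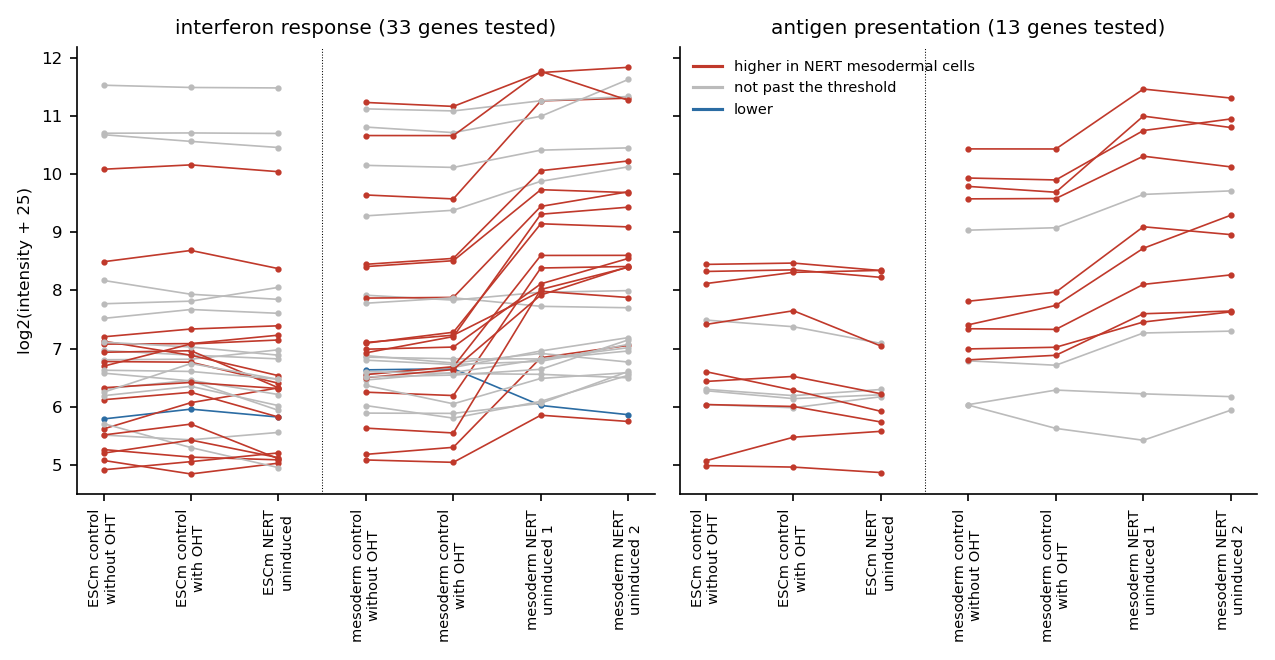
Level (log2 of intensity plus 25) of the 33 interferon response genes and the 13 antigen presentation genes tested, on the 3 ESCm arrays and the 4 mesodermal arrays, 1 line a gene, joined within each population. Red lines mark the 16 and 9 genes called higher in NERT mesodermal cells, so their step up at the mesodermal stage follows from the colouring. In ESCm, with 1 NERT array, the median line differences of the 2 lists were -0.11 and -0.12.

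Signalling lists were read against 8.07% higher and 2.88% lower among all genes, of whose calls 73.7% were higher. Of 16 Wnt targets and feedback genes 6 were higher, among them the factor Sp5 (387 and 375 in control, 1553 and 1389 in NERT cells), the secreted inhibitor Dkk1 (176 and 181, 556 and 711) and Axin2, a scaffold of the destruction complex (275 and 295, 479 and 431). Of 17 FGF and MAPK feedback genes 5 were higher, including the phosphatases Dusp4 (409 and 448, 1122 and 1009) and Dusp6 and the receptor inhibitor Il17rd. Etv5, a factor downstream of FGF (1594 and 1548, 966 and 994), had a limma adjusted p of 0.0765. Of 12 Nodal and activin targets 4 were higher and 1 lower. Follistatin (Fst), which binds activin, stood at 729 and 543 and at 2337 and 1592, and Lefty2, a Nodal antagonist, at 961 and 881 and at 1521 and 1368, whereas Lefty1 overlapped (1403 and 1408, 2139 and 1150). Of 13 BMP targets 3 were higher, Bmp2, Msx1 and Bambi, and Id1 to Id4 did not pass.

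Cell-surface and matrix genes were higher in part, beside 8.07% higher and 2.88% lower among all genes. Of 15 ephrins and Eph receptors 7 were higher, among them Epha1 (396 and 399, 998 and 816), Epha7 and Efnb1 (252 and 303, 536 and 611). Of 19 adhesion and epithelial-mesenchymal transition genes 6 were higher. They were N-cadherin, Cdh2 (342 and 366, 1487 and 1300), cadherin 11, fibronectin (Fn1, 2170 and 2355, 4404 and 5248), Snai1, Zeb2 and vimentin (Vim, 4470 and 4496, 6571 and 6648). E-cadherin, Cdh1, stood at 3923 and 4273 and at 4773 and 4799 (limma adjusted p = 0.209). Of 27 extracellular matrix genes 7 were higher, led by the proteoglycan Bgn (127 and 122, 462 and 697), and the laminin chain Lama1 was lower. Of 11 Hox genes tested Hoxb1, Hoxb2 (7.84 and 13.9, 87.5 and 94.2) and Hoxd9 were higher. Of 11 retinoic acid genes Cyp26a1, which degrades retinoic acid (121 and 116, 442 and 529), Rdh10 and Aldh1a3 were higher.

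Imprinted genes went both ways, with 4 of 25 higher and 5 lower, beside 8.07% higher and 2.88% lower among all genes. Cdkn1c (p57), a cell cycle inhibitor, stood at 175 and 179 in control and at 938 and 840 in NERT cells, and Grb10, Peg12 and Phlda2 were the others that were higher. Plagl1, a zinc finger factor, stood at 2437 and 2520 and at 901 and 810, and Mest at 2088 and 2036 and at 734 and 1282. Dlk1, Mirg and Ascl2 were lower as well. For Plagl1, 1 of the 2 other probe sets ran the other way.

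Over 5 lists of general cell state, 11 of 105 genes passed the threshold, 10.5%, beside 1389 of all 12682 genes. None of 15 cytosolic ribosomal protein genes passed the threshold, and their median was -0.01. Of 26 cell cycle genes cyclin D2 (Ccnd2, 132 and 115 in control, 534 and 541 in NERT cells) was higher and cyclin E1 (Ccne1, 1099 and 1046, 664 and 610) lower. Of 23 hypoxia and glycolysis genes Vegfa and Slc2a1 were higher and none lower. Of 22 immediate early genes Ier5 and Zfp36 were higher and Jund lower. Of 19 heat shock and unfolded protein genes Hspb8 was higher. Ddit3 (314 and 446, 171 and 157), Trib3 (279 and 351, 136 and 116) and Herpud1 (257 and 352, 101 and 93.1), all induced by stress of the endoplasmic reticulum or of amino acid supply, were lower. For each of these 3 the control array with OHT was the higher of the pair.

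Genes of the Notch pathway differed unevenly. Of 12 canonical targets 4 were higher and 1 lower, with a median of 0.33, and of 16 tested receptors, ligands and processing factors 4 were higher. Among all genes 8.07% were higher and 2.88% lower, with a median of 0.05. Nrarp has been given above. Hey2, a repressor that Notch induces, stood at 49.3 and 37.2 in control and at 222 and 308 in NERT cells (log2 difference 2.08, SE 0.22, limma adjusted p = 0.000143). Hey1 stood at 45.0 and 60.9 and at 94.9 and 96.4 (0.64, limma adjusted p = 0.0493), and the ligand Jag1 at 132 and 166 and at 245 and 282. Dtx1, a ubiquitin ligase of the pathway, was lower (228 and 212, 114 and 111). Hes5, the target with the largest response to OHT under CHX (log2 6.71), stood at 20.98 and 20.1 and at 25.1 and 23.2 (log2 difference 0.11, limma adjusted p = 0.797), and Hes1 at 218 and 204 and at 352 and 299 (limma adjusted p = 0.158). Hey2 stood apart between the lines and Hes5 stayed near 20 to 25 on all 4 arrays.

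The promoters of these 2 genes are printed in the same way, with TGGGAA, the core that RBP-J binds, in capitals on either strand. Hey2 lies at chr10:30842734-30843033 (minus strand) and Hes5 at chr4:154960673-154960972 (plus strand). Each holds 2 matches.
Hey2: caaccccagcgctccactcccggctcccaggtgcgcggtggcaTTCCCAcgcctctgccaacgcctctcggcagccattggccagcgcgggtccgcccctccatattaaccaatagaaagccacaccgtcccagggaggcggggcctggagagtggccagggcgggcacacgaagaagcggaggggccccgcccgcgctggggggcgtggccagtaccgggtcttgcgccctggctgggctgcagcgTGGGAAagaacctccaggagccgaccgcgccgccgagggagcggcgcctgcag
Hes5: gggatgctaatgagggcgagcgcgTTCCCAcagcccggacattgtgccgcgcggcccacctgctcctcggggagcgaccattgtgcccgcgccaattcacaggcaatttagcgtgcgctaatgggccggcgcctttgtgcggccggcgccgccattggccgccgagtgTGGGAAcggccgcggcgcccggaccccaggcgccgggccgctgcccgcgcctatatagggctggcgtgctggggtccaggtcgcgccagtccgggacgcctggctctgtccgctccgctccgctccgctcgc

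TGGGAA was found in 25.6% of the 32851 promoters. Of the 4 canonical targets that were higher, 3 had a promoter and Hey2 alone held the core. Of the 8 others 6 had a promoter, and Hes5, Hes7 and Lfng held it.

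Notch1 itself, part of which the NERT construct carries, stood at 199 and 196 in control and at 395 and 391 in NERT cells on its brighter probe set (log2 difference 0.91, SE 0.21, limma adjusted p = 0.0198). The second probe set stood at 102 and 112 and at 272 and 161 (0.83, limma adjusted p = 0.0477). In ESCm the brighter probe set stood at 301 and 303 in control and at 351 in NERT cells. Whether these probes read the transgene is not given in the sources used here. Adam10, the protease that sheds the Notch ectodomain (343 and 351, 744 and 726), and the ligand Dll3 (166 and 163, 311 and 341) were higher, and Dll1 (153 and 135, 155 and 133) and Rbpj (1607 and 1787, 1293 and 1339) did not pass.

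Probe sets that rose at least 2-fold with OHT in NERT mesodermal cells under CHX numbered 144. The arrays behind them do not enter the means of the line difference, but they share in the estimate of spread behind its calls. Of these, 45 were higher in uninduced NERT cells, 31.2% against 6.47% of all probe sets, 2 were lower, and the median was 0.35. Both lower probe sets read Arg2, an arginase (115 and 114 in control, 15.7 and 29.2 in NERT cells). The 45 fell to between 10.1% and 15.7% of the corresponding lists when any 1 of the 4 arrays was left out. Of the 68 that were also higher in mesodermal cells than in ESC, 33 were higher (48.5%), beside 29.1% of all 4530 probe sets with such a rise. Of the 76 without it, 12 were higher (15.8%), beside 1.63% of 21107, and they included both Jag1 and the dimmer Notch1 probe set. In ESCm 5 of the 144 were higher (3.47%, beside 0.0936% of all probe sets) and none lower, and the median line difference was 0.09. Of 92 probe sets that rose with OHT in ESC, 44 were higher in uninduced NERT mesodermal cells (47.8%) and none lower. These 92 were not split by stage rise, and among all probe sets with such a rise the share was 29.1%.

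**Figure D4:**
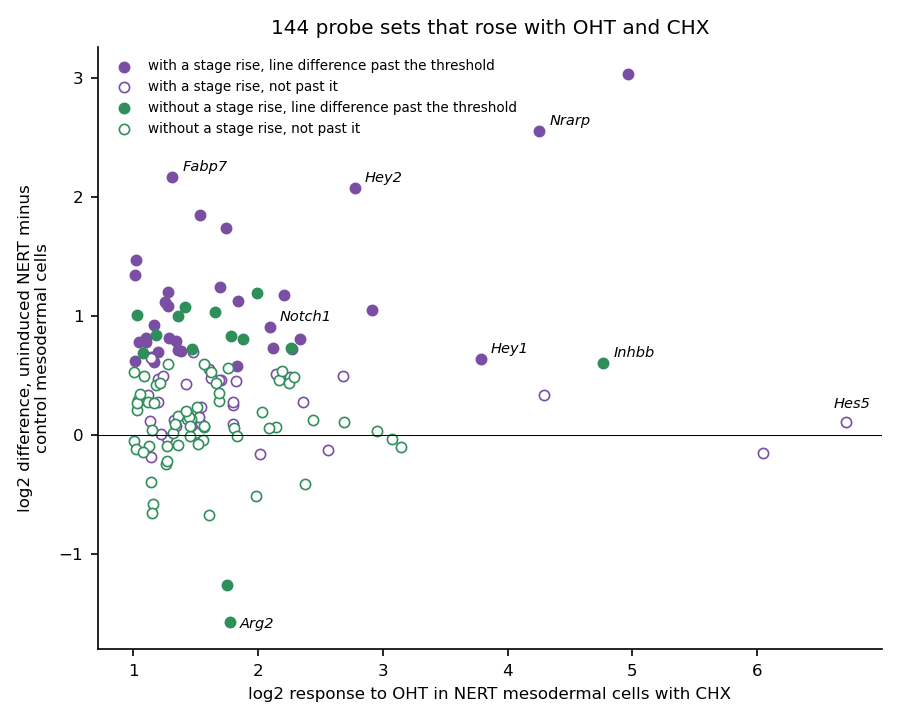
For the 144 probe sets that rose with OHT under CHX, the log2 response (horizontal) against the log2 line difference between uninduced NERT and control mesodermal cells (vertical), 1 point a probe set. Filled points passed the threshold in the line difference, 45 above 0 and 2 (Arg2) below it; Hes5, with the largest response, lies at 0.11.

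The line difference ran largely along the difference between stages. The stage difference compared NERT mesodermal cells with OHT against NERT ESC with OHT. Its arrays enter the line difference only through the estimate of spread. Both use NERT mesodermal cells, so a feature of those cells can enter both. Deviations of the 2 replicates from their mean correlated at r = 0.50 between uninduced and induced NERT mesodermal cells. Notch1 was induced on both sides of the stage difference, so a response to OHT that differs between stages can enter it. Of 1500 probe sets at least 2-fold higher in mesodermal cells than in ESC, 748 were higher in uninduced NERT than in control mesodermal cells (49.9%) and 3 were lower. Of 1046 at least 2-fold lower, 336 were lower (32.1%) and 3 higher. Among all probe sets tested, 6.47% were higher and 2.39% lower in the line difference. Read from the line difference, 79.3% of the 1659 higher probe sets also had a stage rise and 1.33% a stage fall, and 81.4% of the 612 lower ones had a stage fall and 1.96% a stage rise. These small shares came to 22 higher probe sets with a stage fall and 12 lower ones with a stage rise. Within the 2-fold stage lists the exceptions were S100a13, Cxcl10 and Plagl1, lower despite a stage rise, and Inhbb, Col3a1 and Fry, higher despite a stage fall. Without OHT, Cxcl10 stood at 31.62 in NERT ESCm and at 40.01 and 33.25 in NERT mesodermal cells, against 189 and 240 with OHT in the latter. Fry stood at 132 in uninduced NERT ESCm and at 132 and 129 in uninduced NERT mesodermal cells. The stage differences of Cxcl10 and Fry were thus not visible without OHT, whereas those of the other genes named kept their direction. The 49.9% fell to 18.5% and 22.5% without the control array lacking OHT and that with it, and to 23.3% and 31.2% without NERT replicates 1 and 2. By list, 14 of the 16 higher early mesoderm genes had a stage rise, 14 of the 15 lower pluripotency genes a stage fall, and 10 of the 11 lower germline genes a stage fall, beside 81.6% of all higher and 82.2% of all lower genes.

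**Figure D5:**
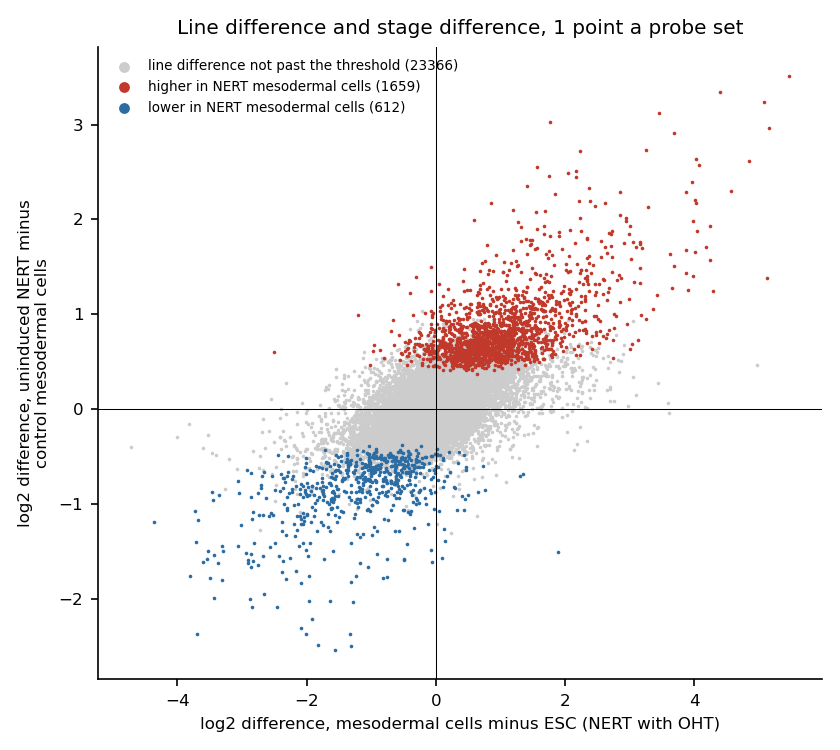
Log2 stage difference (mesodermal cells minus ESC, NERT with OHT, horizontal) against the log2 line difference (uninduced NERT minus control mesodermal cells, vertical), 1 point a probe set, for 25637 probe sets. Most of the 1659 higher probe sets (red) lie to the right of 0 and most of the 612 lower ones (blue) to the left.

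Before differentiation fewer probe sets passed the threshold between the lines. In ESCm 24 were higher in NERT cells (0.0936%) and 42 lower (0.164%), with 1 NERT array whose spread is assumed to be that of the other groups. With 1 NERT array, the line difference in mesodermal cells had 753 or 1091 calls. The calls in ESCm fell to 3 without the control ESCm array lacking OHT and to 7 without that with OHT, and none of these was higher. Of the 24, 16 were also higher in mesodermal cells (66.7%, beside 6.47% of all probe sets), and they are 0.964% of the 1659. Of the 42, 12 were also lower in mesodermal cells (28.6%, beside 2.39%), and they are 1.96% of the 612. Another 3 of the 42 (7.14%), which read Pdgfra, Bmper and Zc3hav1, were higher in NERT mesodermal cells. The Notch ligand Jag1 was among the 16 higher at both stages, at 139 and 136 in control and 327 in NERT ESCm (log2 difference 1.11, limma adjusted p = 0.0275). By size of the difference in mesodermal cells, the 5 leading genes higher at both stages were Bgn, the protocadherin Pcdh18 (36.9 and 32.1, 106 in ESCm; 135 and 133, 516 and 522 in mesodermal cells), the hyaluronan receptor Cd44, caveolin Cav1 and collagen Col3a1. The 5 leading genes lower at both were Rhox5, Plagl1, Crxos, Ascl2 and Fbp2. Of 18 endoderm genes tested 6 were lower in ESCm, beside 0.237% of all genes, among them Sox7 (141 and 145, 26.8) and Dab2 (458 and 498, 150). The list median was -0.87 there and -0.04 in mesodermal cells.

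The line difference in mesodermal cells was tested against that in ESCm. It was greater at 203 probe sets (0.792%) and smaller at 43 (0.168%). All 15 of the largest rises were among the former, and 3 of the 15 largest falls among the latter. Both sets were chosen by the size of the mesodermal difference, which enters this contrast, so these counts are no separate evidence. Aplnr stood at 2.59 and 7.12 on the ESCm control arrays and at 5.94 on the NERT array, so that no ESCm array exceeded 7.12. Of all genes tested, 1.13% had a greater line difference in mesodermal cells and 0.158% a smaller one, 1.29% in either direction. Counted in either direction, the line difference differed from that in ESCm for 9 of 30 early mesoderm genes and 10 of 33 interferon response genes. Dppa2 stood at 4211 and 4209 and at 4323 in ESCm, and its line difference in mesodermal cells minus that in ESCm was -1.45 on the log2 scale (limma adjusted p = 0.0055).

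The line difference was spread over the genome. Median differences by autosome lay between 0.03 and 0.09 on the log2 scale, and 5.94% to 11.8% of an autosome's genes were higher. On the X chromosome the median was 0.13 and 13.0% were higher. In ESCm the medians of all 20 chromosomes lay between -0.08 and -0.02.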

How the data were processed

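RNA samples were hybridised to 16 Affymetrix Mouse Genome 430 2.0 arrays. The authors deposited 1 table of linear intensities, computed with the dChip model after invariant-set normalization to the control mesoderm array with OHT, without detection calls. The table holds 45037 probe sets, of which 34945 name 1 gene, 932 several and 9160 none. Samples were grouped by their labels. Values were read as log2(intensity + 25), and 25637 probe sets with a mean of at least 50 in 1 of 10 groups were tested with limma 3.58.1 (R 4.3.3; lmFit, eBayes with trend) over all 16 arrays, with 6 residual degrees of freedom and Benjamini-Hochberg adjustment at 0.05. With 2 arrays a group, an exact permutation test cannot go below p = 0.333. A gene was read from its probe set with the highest mean.

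The genes named were the 15 largest rises and the 15 largest falls past the threshold without overlap between groups, the 5 largest in each direction of the contrast between mesodermal cells and ESCm and of the calls shared by both, and members of 31 gene lists. Members and lists were chosen with earlier results of these data known. Tested on simulated data with the same layout of arrays and 23984 probe sets, the fit recovered 72% of 2-fold and 99% of 3-fold changes. There were 8 calls among unchanged probe sets. The simulation checks the fit under simulated noise and cannot measure error between cultures, clones or lines. In the real arrays, replicate deviations correlated at r = 0.50 between uninduced and induced NERT mesodermal cells. The 8 calls are therefore no estimate of false calls in the line difference. Alternatives were other pseudocounts, filters, normalization, sets of arrays and control arrays, and each array left out. The number of arrays limits the precision.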

Additional observations from a re-analysis of the deposited data

Results flagged for a closer look

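The line difference in mesodermal cells differed from that in ESCm at 203 probe sets in the upward and 43 in the downward direction, by a test of the difference itself in limma. Of the 203, 182 were higher in NERT mesodermal cells and 17 were lower in NERT ESCm. Of the 43, 33 were lower in mesodermal cells and 3 were higher in ESCm. The ESCm side has 1 NERT array.

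The largest positive differences between the stages, on the log2 scale, were 3.46 for Aplnr, 3.25 for Dkk1, 3.06 for Pdgfra, 2.96 for Rtp4 and 2.81 for Oasl2. Pdgfra was lower in NERT ESCm and higher in NERT mesodermal cells, whereas the ESCm difference of Dkk1 did not pass the threshold (limma adjusted p = 0.0849). Their ESCm values were 157 and 142 in control against 33.9 in NERT cells for Dkk1, and 156 and 138 against 24.6 for Pdgfra. The other Pdgfra probe set ran the other way in mesodermal cells. The largest negative differences were -2.13 for Dnmt3l, -2.09 for Rpl39l, -1.97 for Foxd3, -1.76 for Atp1a4 and -1.73 for Myb. Atp1a4 stood at 4.91 and 11.1 in control ESCm against 78.3 in NERT ESCm, and stayed at 2.88 to 15.9 in mesodermal cells.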

How the results depend on the processing

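No called result of those recomputed changed direction under any setting run, while Atp1a4 (not called) and the near-zero medians of the cell cycle and primed epiblast lists changed sign under some. Of 46 genes named by the size of their change, Ascl2, Cav1, Col3a1, Crxos, Fbp2, Gm4850, Morc1, Nr0b1 and Pdgfra lost their call under some setting. With the control array without OHT alone, and then with that with OHT alone, the line difference had 663 and 541 calls (501 and 382 higher, 162 and 159 lower), the contrast with ESCm 77 and 63 (65 and 50, 12 and 13), pluripotency 3 and 3 lower, antigen presentation 3 and 2 higher and germline genes 7 and 7 lower. Fewer arrays enter there. The 4 arrays alone gave 5741 calls (3911 higher, 1830 lower) and 23 lower pluripotency genes, and all arrays without CHX gave 4295 (2954, 1341), with 125 in ESCm (68 higher) and 913 in the contrast (722, 191). Quantile normalization gave 1013 lower calls, 44 higher in ESCm and 85 lower in the contrast, and a filter over the compared groups gave 40 in ESCm (24 lower). The cause was not tested. At 1.5-fold, 1645 were higher and 547 lower, and without a minimum difference 1964 and 1613. Without a minimum change, 29.1% of stage rises were higher and 12.1% of stage falls lower.

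Leaving out 1 array at a time gave 541 to 3566 calls in the line difference (382 to 2573 higher, 159 to 994 lower), 3 to 94 in ESCm (0 to 45, 3 to 53), 52 to 596 in the contrast (47 to 498, 5 to 98), and 545 to 607 higher and 214 to 276 lower by fold. By list it gave 11 to 17 higher early mesoderm genes, 2 to 18 lower pluripotency genes, 12 to 17 higher interferon genes, 2 to 10 higher antigen genes and 7 to 11 lower germline genes. The shares of the response to OHT were 10.1% to 32.1% with CHX and 20.5% to 54.3% in ESC, and of stage rises and falls 18.5% to 62.5% and 10.7% to 40.0%. The settings that left out arrays for the response and stage lists were chosen after seeing the data. No paired analysis was possible because the control mesoderm arrays carry no replicate number. For the response with CHX, the 8 NERT mesoderm arrays gave 30.8% with the replicate block and 30.7% without it.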

Other observations

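Some genes differed between the lines without a difference between stages that passed the threshold, and were chosen after their values were seen. Among genes higher in NERT cells, the neuropilin receptors Nrp1 (29.8 and 24.8 in control, 89.8 and 140 in NERT cells) and Nrp2 (139 and 145, 339 and 410), the receptor Pdgfrb (72.3 and 98.2, 266 and 297) and the planar polarity gene Prickle1 (145 and 173, 468 and 348) belonged to this set. Among genes lower in NERT cells were the small nucleolar RNA host gene Snhg3 (1265 and 1505, 469 and 403), Gng3 (856 and 851, 484 and 328), the secretin gene Sct (61.3 and 61.3, 11.97 and 12.6) and Runx1t1 (142 and 170, 60.7 and 42.0).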
